A study of Mus musculus with 5 samples.

Results

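The comparison set BV-2 cells that had received trazodone and then urban particulate matter against BV-2 cells left untreated. BV-2 is an immortalised mouse microglial cell line, and microglia are the resident macrophages of the brain. The pair is 2 of the 5 libraries of the series, and the trazodone dose in it, 5 µg/mL (TZ 5), is the highest used. Treated cells were given TZ 1 h before urban particulate matter (UPM, 50 µg/mL) and stayed with the particles for 23 h, whereas the control is labelled only as a normal control. The sources used here do not say whether that control received any vehicle. The remaining libraries were UPM alone and UPM after TZ at 1.25 or 2.5 µg/mL (TZ 1.25 and TZ 2.5), and their levels are set beside those of the pair. All libraries came from the same cell line, and the labels name neither a genetic change nor separate cultures. The question is the net state of cells given drug and particles relative to untouched cells. Both agents differ between the libraries compared, so within the pair the part of each cannot be told apart.

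Levels are counts per 1e6 counts (CPM) scaled by TMM factors, and 8340 of the 40879 gene symbols listed had a mean CPM of at least 10 over the pair. These are the measured genes. A gene under 10 CPM in either library is measured only through its level in the other, so the limit favours large folds there. Each fold is the TZ 5 level over the control level, with a 95% exact conditional binomial interval (Clopper-Pearson) in parentheses that covers counting error only. Genes with a fold of 1.5 or more in either direction and an interval that excluded 1 were called higher or lower. There is 1 library per group, so a fold has no replicate check and compares 2 libraries. The measured gene nearest above the level limit was Rffl at a mean CPM of 10.0064, and the nearest below was Gstm5 at 9.99544. A test came from a fit of all 5 libraries (edgeR's quasi-likelihood test, a UPM term and a linear TZ dose term, Benjamini-Hochberg adjusted p under 0.05). It estimates TZ 5 minus control on the log2 scale, given with its standard error (SE), and takes the scatter of the single control to be that of the 4 exposed libraries. "Rose" and "fell" are kept for genes that passed it.

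Library totals ran from 6829720 to 7696168 counts over the series, with 7582187 in the control and 6855817 in TZ 5, and 3 counts, the most that a count of 0 allows, are 0.396 CPM in the control and 0.438 in TZ 5. All 12 microglial and myeloid markers had counts in both libraries, with summed levels of 4564 CPM in the control and 4525 in TZ 5. Csf1r, the receptor that keeps macrophages alive, stood at 636 CPM in the control and 657 in TZ 5. The markers of resting brain microglia were scarce in both: P2ry12, a purinergic receptor, had 5 and 11 counts, and Tmem119 3.061 and 4.496 CPM. The cells therefore carried the general myeloid markers of the label while the defining markers of resting microglia were near the detection limit. Neuronal, fibroblast and lymphocyte marker sums stayed at or below 6.64 CPM in every library. Other sums were larger in the control and TZ 5. Astrocyte markers were at 68.3 and 79.5 CPM, mostly Aldoc, and oligodendrocyte markers at 23.3 and 25.7, with Cnp the highest. Neutrophil markers were at 17.6 and 22.5, mostly S100a8, and endothelial markers are given below.

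Particles taken up by macrophages are known to cause oxidative stress, which frees the transcription factor NRF2 to switch on genes for glutathione use and detoxification. The tumour suppressor p53 switches on genes that halt division or start apoptosis, among them Cdkn1a and Bbc3. Inflammatory activation of microglia runs through Toll-like receptors and NF-kB to cytokines, and interferon signalling adds a further set of defence genes. Trazodone is an antidepressant that blocks serotonin receptors and serotonin uptake.

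Relative to the control, the TZ 5 library held 296 of the 8340 measured genes at higher levels (3.55%) and 209 at lower levels (2.51%), together 505 genes (6.06%). Among measured genes, leaving out predicted names, Gsta3 had the highest fold at 6.04 (4.34 to 8.61). It encodes a glutathione transferase that detoxifies electrophiles. The lowest of the same genes was H2ac20, a replication-dependent histone gene, at 0.296 (0.224 to 0.386). Most genes differed little: 93.9% of measured genes lay within 1.5-fold, 73.5% within 1.25-fold, and the median log2 fold was 0.01. At a fold of 2 the counts were 28 higher and 23 lower. In the fit 270 of 12381 genes rose (2.18%) and 347 fell (2.80%), with 2179 at an unadjusted p under 0.05. The shares by fold and in the fit are the background for the counts of every list and class below. Of the 296 genes called higher by fold, 130 rose in the fit, and of the 209 called lower, 121 fell. The balance depended on the rule, since higher genes were 58.6% of the fold calls and 43.8% of the fit calls, and with libraries scaled by total counts alone the fit's share was 54.7%. Without the UPM library the fit called 343 genes higher and 421 lower, without TZ 2.5 it called 173 and 226, and DESeq2 called 96 and 166.

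**Figure D1:**
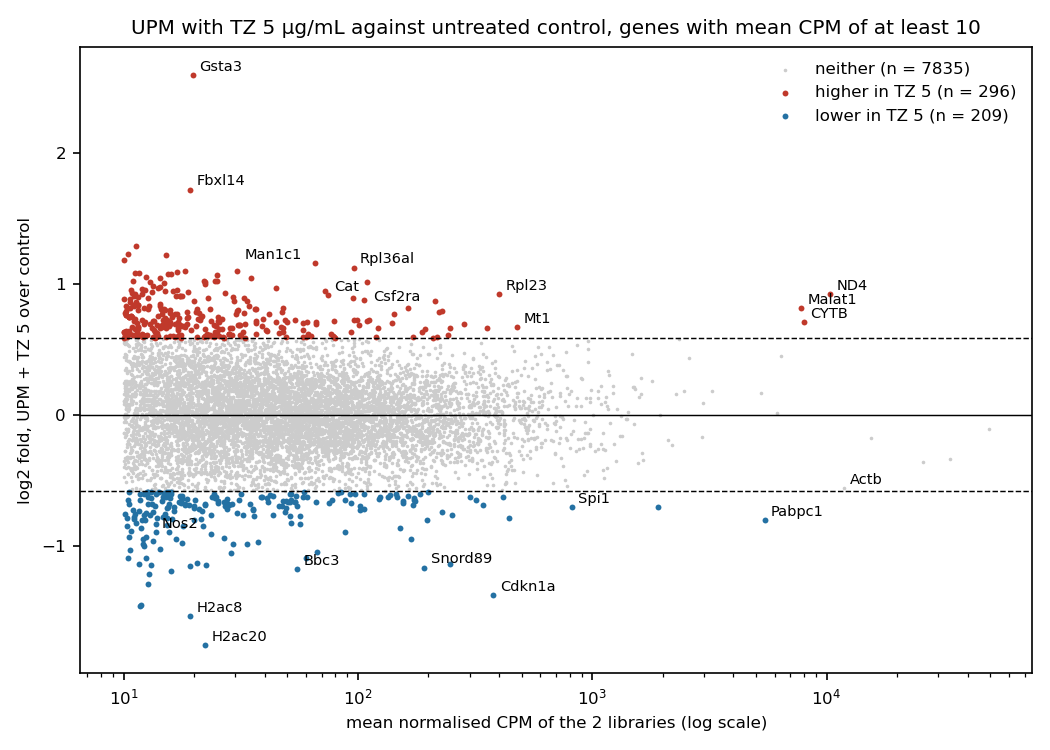
Each point is a measured gene, with the mean normalised CPM of the control and TZ 5 libraries on a log scale (x) and the log2 fold of TZ 5 over control (y). Dashed lines mark 1.5-fold in each direction, and coloured points are the 296 genes called higher and the 209 called lower. Gsta3 stands above all other points, and the abundant genes ND4, Malat1 and CYTB lie at the right of the higher genes with Pabpc1 opposite.

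The NRF2 antioxidant genes had the highest median of the 41 lists with at least 5 measured members. Of 17 measured members 5 were called higher and 0 lower, 16 had folds above 1, and the median log2 fold was 0.46 against 0.01 over all measured genes. In the fit 8 of 18 rose and 0 fell. Over all genes 3.55% were called higher by fold, and 2.18% rose in the fit. The same median over the control was 0.39 for UPM alone, 0.54 for TZ 1.25 and 0.45 for TZ 2.5. These 4 values share the control library. Promoter windows of Gsta3 and Me1 are shown because they are the called members whose window holds the letters TGACNNNGC on either strand, the core of the antioxidant response element that NRF2 binds. Capitals mark the match, which begins 121 bases before the annotated start in Gsta3 and 6 bases before it in Me1. The windows run from 250 bases before to 50 after the start (RefSeq, GRCm38.p6), at chr1:21240335-21240634 on the plus strand and chr9:86695865-86696164 on the minus strand.
Gsta3: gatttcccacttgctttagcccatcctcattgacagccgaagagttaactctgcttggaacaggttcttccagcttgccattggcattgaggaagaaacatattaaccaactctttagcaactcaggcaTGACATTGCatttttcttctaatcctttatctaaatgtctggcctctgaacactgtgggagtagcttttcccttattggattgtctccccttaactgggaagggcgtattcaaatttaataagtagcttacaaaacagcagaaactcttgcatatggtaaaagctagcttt
Me1: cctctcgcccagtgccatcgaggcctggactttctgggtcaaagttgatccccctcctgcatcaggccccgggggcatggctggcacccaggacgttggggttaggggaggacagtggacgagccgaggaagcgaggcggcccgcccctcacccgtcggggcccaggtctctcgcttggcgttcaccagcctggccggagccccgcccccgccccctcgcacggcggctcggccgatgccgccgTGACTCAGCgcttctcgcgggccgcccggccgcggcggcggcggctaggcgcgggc
Of 32851 promoter windows of this length 12.4% hold the motif, as do 17.1% of the 6671 measured genes with a window and 6 of the 13 measured list members with a window. The windows of the other called members, Gstm1, Slc7a11 and Cat, do not contain these letters. A match is a description of the letters and not of binding.

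Gsta3 stood at 5.59 CPM in the control and 33.8 in TZ 5, with 21.0, 27.7 and 25.6 in UPM, TZ 1.25 and TZ 2.5, so all 4 exposed libraries were above the control. It rose in the fit by 2.58 ± 0.27 (SE) on the log2 scale (edgeR adjusted p = 2.247e-10). Gstm1, which also joins glutathione to electrophiles, was at 30.1 CPM in the control, 53.2, 44.4 and 55.7 in UPM, TZ 1.25 and TZ 2.5, and 58.9 in TZ 5, a fold of 1.96 (1.66 to 2.31). Catalase (Cat), which breaks down hydrogen peroxide, went from 51.4 CPM in the control to 97.2 in TZ 5, with 79.4 to 87.6 in the other exposed libraries, and had a fold of 1.89 (1.67 to 2.15). The control was the lowest library for each of these genes. Slc7a11, the cystine importer that feeds glutathione synthesis, had a fold of 1.94 (1.48 to 2.56), and Me1, the malic enzyme that makes NADPH, 1.64 (1.32 to 2.04). Gstm1 (edgeR adjusted p = 0.0003607), Cat (0.0001004), Slc7a11 (0.01816) and Me1 (0.02978) all rose in the fit.

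Gclm, Blvrb and Esd rose in the fit without reaching a fold of 1.5, at folds of 1.37, 1.46 and 1.45. Gclm is the modifier subunit of the enzyme that starts glutathione synthesis, and Blvrb reduces biliverdin. The catalytic subunit Gclc was the lowest member, at 124 CPM in the control and 118 in TZ 5 (0.949, 0.863 to 1.04). Other well-known NRF2 targets differed little between the pair: Txnrd1, thioredoxin reductase, was at 218 and 229 CPM, and Prdx1, a peroxiredoxin, at 874 and 918. Prdx1 was higher in UPM, at 1172 CPM, than in either library of the pair. Hmox1, haem oxygenase, was at 49.2 CPM in the control and 60.5 in TZ 5 (1.23, 1.07 to 1.42) and did not pass the test (edgeR adjusted p = 0.2775). Nqo1, a quinone reductase, had no count in the control and 0.145 CPM in TZ 5, under the detection limit.

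Metal handling and xenobiotic genes were measured beside these. Among 9 measured genes of metal and iron handling 1 was called higher, Mt1, and 0 lower, with a median log2 fold of 0.17. Mt1, a metallothionein that binds zinc and copper, was at 370 CPM in the control and 590 in TZ 5, with 513, 521 and 584 in UPM, TZ 1.25 and TZ 2.5 (1.60, 1.52 to 1.68; edgeR adjusted p = 1.274e-05). Ftl1, the ferritin light chain, rose in the fit (edgeR adjusted p = 9.222e-05) and stood at 1875 CPM in the control and 2812 in TZ 5, while the heavy chain Fth1 was at 4933 and 5531 CPM. The aryl hydrocarbon receptor answers polycyclic aromatic compounds, and its targets Cyp1a1 and Cyp1b1 had no count in any of the 5 libraries. Tiparp, another target of that receptor, was at 104 CPM in the control and 77.5 in TZ 5 (0.741, 0.663 to 0.828) and fell in the fit (edgeR adjusted p = 0.03235). That call was lost in 4 of the 7 alternative fits, at adjusted p from 0.05044 to 0.1094.

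The p53 targets had the lowest median of the 41 lists. Of 16 measured members 5 were called lower and 0 higher, 2 had folds above 1, and the median log2 fold was −0.38. In the fit 6 of 24 fell and 0 rose. Over all genes 2.51% were called lower by fold, and 2.80% fell in the fit. The same median was −0.14 for UPM alone over the control, −0.31 for TZ 1.25 and −0.26 for TZ 2.5. Cdkn1a, which encodes the cell-cycle inhibitor p21, was at 547 CPM in the control and 210 in TZ 5, with 394, 320 and 267 in UPM, TZ 1.25 and TZ 2.5. The control was thus the highest library and TZ 5 the lowest, with a fold of 0.385 (0.362 to 0.408). In the fit Cdkn1a fell by 1.43 ± 0.11 (SE) on the log2 scale, and it had the smallest adjusted p of all 12381 genes (edgeR adjusted p = 1.309e-15).

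Bbc3, which encodes the apoptosis inducer PUMA, was at 76.5 CPM in the control and 33.8 in TZ 5, with 53.7, 48.9 and 38.0 in UPM, TZ 1.25 and TZ 2.5 (0.442, 0.378 to 0.515; edgeR adjusted p = 3.469e-07). Here too the control was highest and TZ 5 lowest. Phlda3, a repressor of AKT signalling, was at 61.8 CPM in the control and 38.9 in TZ 5, and Zmat3, an RNA-binding protein, at 62.0 and 40.8. Both fell in the fit (edgeR adjusted p = 0.008963 and 0.009613), though DESeq2 gave Phlda3 an adjusted p of 0.0688. Bax, which opens the mitochondrial membrane in apoptosis, had a fold of 0.646 (0.544 to 0.765) and did not pass the test (edgeR adjusted p = 0.06469). Sesn2, a stress-induced regulator of growth signalling, lay under the level limit, at 12.7 CPM in the control and 2.61 in TZ 5, and fell in the fit (edgeR adjusted p = 0.0003695). Mdm2, the p53 ubiquitin ligase and a p53 target itself, was at 170.0 and 140 CPM and did not pass the test (edgeR adjusted p = 0.1682). Trp53, the gene for p53, was at 56.4 and 46.0 CPM (edgeR adjusted p = 0.1984). The highest member was Ei24, at a fold of 1.42 (1.11 to 1.80).

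**Figure D2:**
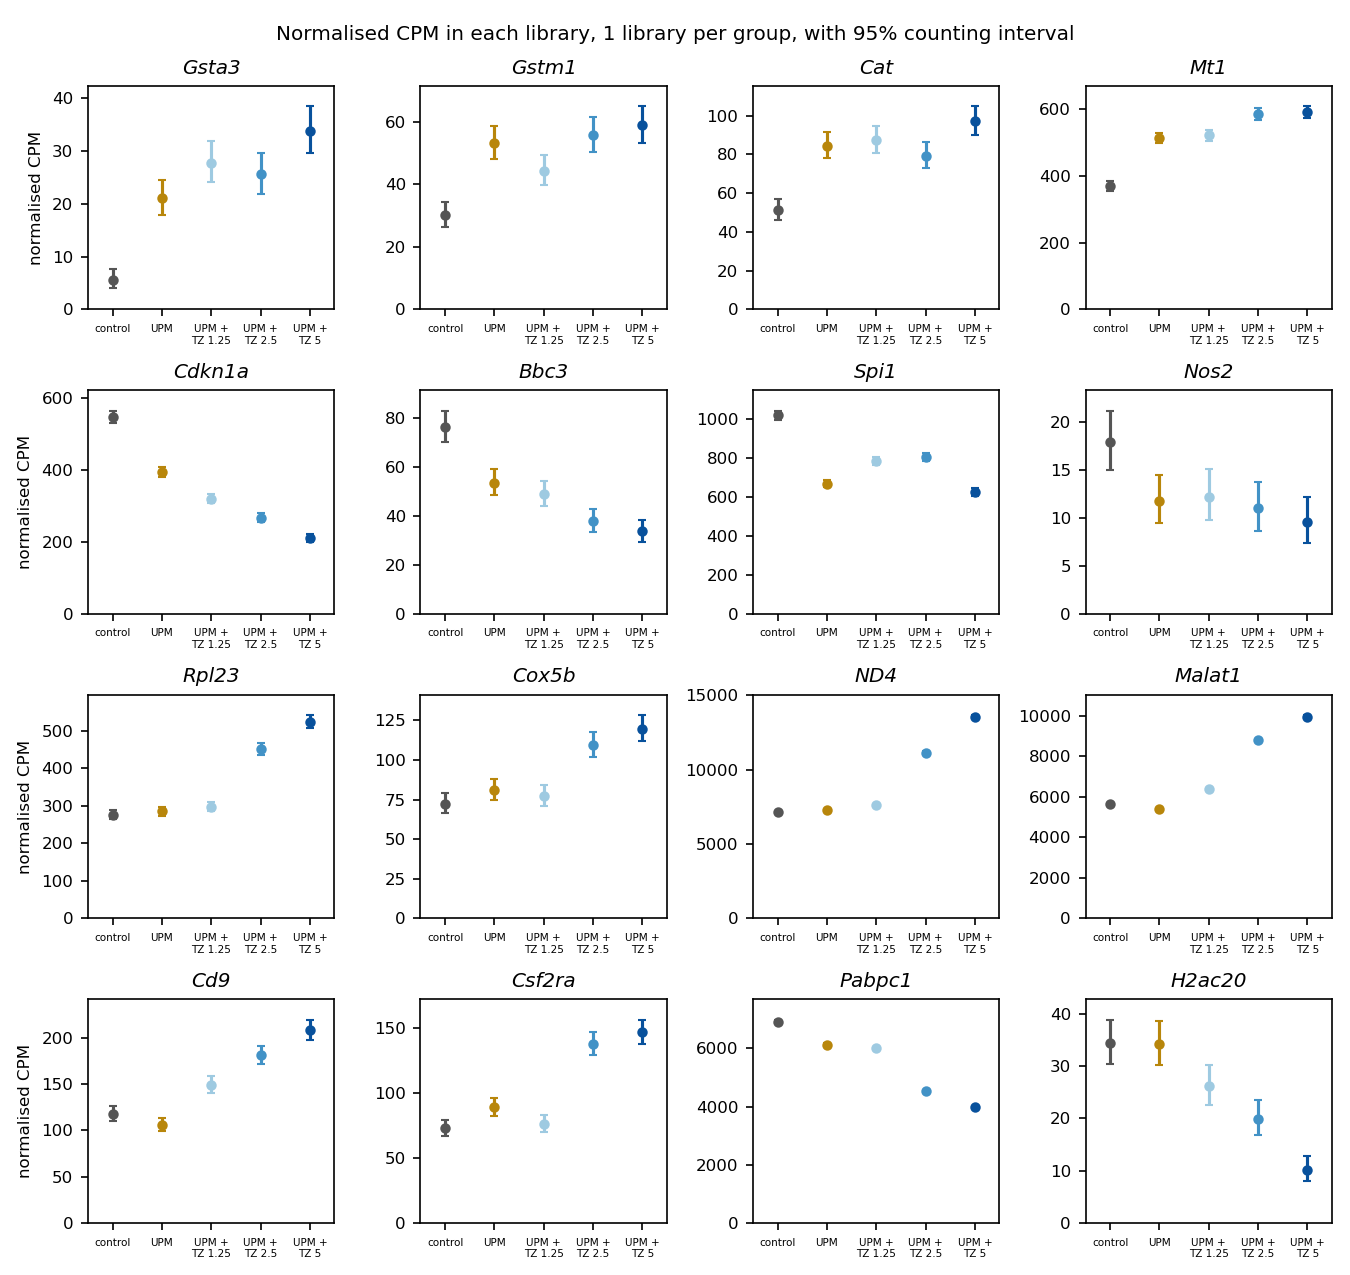
Each panel shows the normalised CPM (y, from 0) of a gene in the 5 libraries (x), with the 95% counting interval of that library as a bar; there is 1 library per group. Gsta3, Gstm1, Cat and Mt1 are lowest in the control; Cdkn1a and Bbc3 are highest in the control and lowest in TZ 5; ND4, Malat1 and Rpl23 are higher in TZ 2.5 and TZ 5 than in the other 3 libraries.

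Small nucleolar RNAs were lower in TZ 5 than in the control. These RNAs guide chemical modification and cleavage of ribosomal RNA, and most are cut from the introns of host genes. Of 12 measured, 9 were called lower and none higher, and the median log2 fold was −0.79. Their share of all counts was 0.0854% in the control and 0.0458% in TZ 5, with 0.108%, 0.0995% and 0.0645% in UPM, TZ 1.25 and TZ 2.5, and the ratio of TZ 5 to control was 0.536 (0.513 to 0.559). The libraries were primed with oligo-dT, so what was counted are copies that such a primer reached. The genes are given from GENCODE M21 (GRCm38), as DNA on the gene's strand, to let the members named be told apart. Snord89 (chr1:39548745-39548854, minus strand, in an intron of Gm15832) is of the box C/D kind, and capitals mark a C box TGATGA and the last D box CTGA. Snora9 (chr11:6528033-6528165, minus strand, inside an exon of Snhg15) and Snora41 (chr1:63179004-63179135, plus strand, in an intron of Eef1b2) are of the H/ACA kind, and capitals mark the ACA that stands 3 bases before the end.
Snord89: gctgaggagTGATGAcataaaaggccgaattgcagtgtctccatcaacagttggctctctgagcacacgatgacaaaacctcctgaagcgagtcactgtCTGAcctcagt
Snora9: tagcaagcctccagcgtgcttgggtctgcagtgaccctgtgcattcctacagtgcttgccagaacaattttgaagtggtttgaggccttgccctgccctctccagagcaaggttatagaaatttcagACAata
Snora41: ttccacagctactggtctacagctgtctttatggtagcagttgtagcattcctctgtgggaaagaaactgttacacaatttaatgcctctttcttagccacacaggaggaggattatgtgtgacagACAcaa

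Snord89 was at 266 CPM in the control and 118 in TZ 5, with 342, 324 and 192 in UPM, TZ 1.25 and TZ 2.5 (0.445, 0.410 to 0.483; edgeR adjusted p = 3.953e-10). For Snord89 the TZ 5 library was lowest and the control lay between the exposed libraries. Snora9 went from 17.2 CPM in the control to 6.24 in TZ 5 (0.363, 0.251 to 0.517), and Snora41 from 26.5 to 11.9 (0.449, 0.343 to 0.584). Snora73b was at 38.9 CPM in the control, 35.6 to 35.9 in the other exposed libraries and 18.7 in TZ 5 (0.481, 0.388 to 0.594). All of these fell in the fit. The host genes of Snora41 and Snora9 were not lower in TZ 5: Eef1b2, a translation elongation factor, was at 582 CPM in the control and 744 in TZ 5, and Snhg15 at 25.02 and 25.09. Snora9 and the Snhg15 exon around it lie on the same strand, so their reads may not be separable under any strand setting. Levels for hosts of Snord89 and Snora73b are not given here. Snhg9, another small nucleolar RNA host transcript, fell in the fit, with a fold of 0.574 (0.531 to 0.620). Whether the small nucleolar RNAs follow their hosts was not tested.

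The tryptophan transfer RNA genes n-TWcca7 and n-TWcca3, both among the 15 lowest named genes, had folds of 0.455 (0.423 to 0.489) and 0.452 (0.325 to 0.622), with n-TWcca7 at 341 CPM in the control and 155 in TZ 5. Replication-dependent histones, which package new DNA and whose messages end in a stem-loop in place of a poly(A) tail, made up 0.0435% of the control counts and 0.0308% of those in TZ 5, a ratio of 0.709 (0.671 to 0.749). Of 6 measured histone genes 3 were called lower and 0 higher. H2ac20 was at 34.3 CPM in the control and 10.2 in TZ 5, with 34.2, 26.2 and 19.9 in UPM, TZ 1.25 and TZ 2.5, and H2ac8 had a fold of 0.345 (0.258 to 0.455). Both fell in the fit (edgeR adjusted p = 1.552e-07 and 5.823e-06). As with small nucleolar RNAs, what was counted of the transfer RNA and histone genes are copies that an oligo-dT primer reached. Histone genes have near-identical copies. How reads shared between copies were counted is not given, for histone or transfer RNA genes. DNA replication genes, 45 measured, had 1 called higher, Rpa3, 1 called lower, Mcm7, and a median log2 fold of 0.03. Mcm7, a subunit of the replicative helicase, was at 503 CPM in the control and 325 in TZ 5 (0.646, 0.613 to 0.681; edgeR adjusted p = 7.949e-06).

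**Figure D3:**
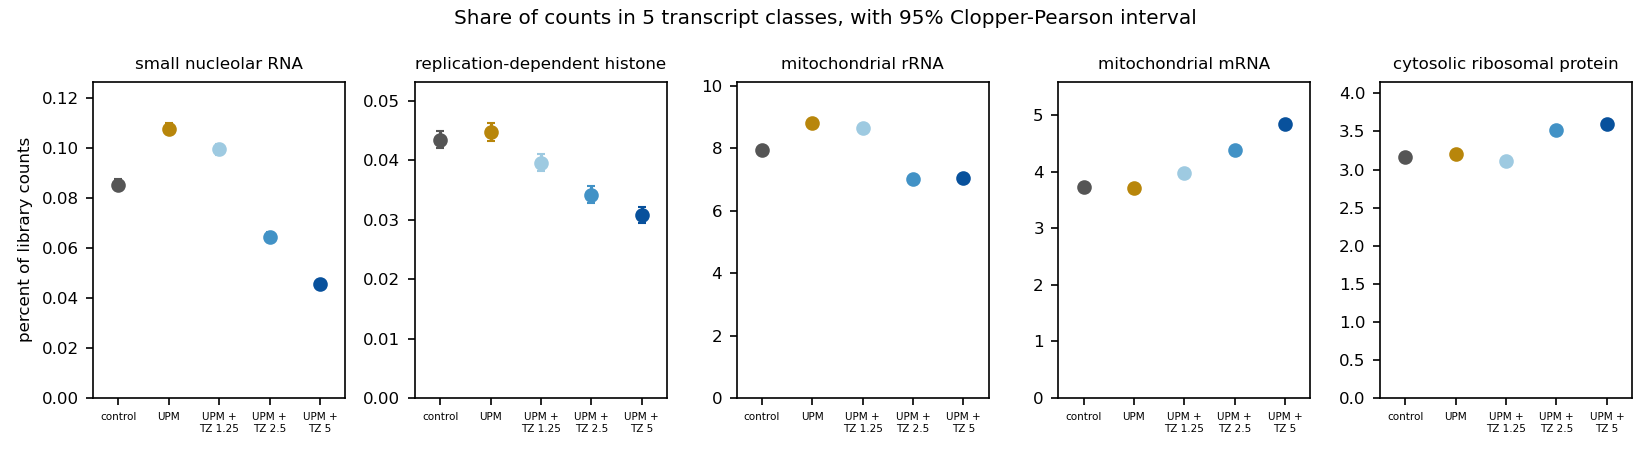
Each panel gives the share of all counts of a library (y, percent, from 0) taken by a transcript class in the 5 libraries (x), with a 95% Clopper-Pearson interval that is smaller than the point where none is seen. Small nucleolar RNA is lowest in TZ 5 at 0.0458% against 0.0854% in the control, and mitochondrial mRNA highest in TZ 5 at 4.85% against 3.74%.

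Messenger RNAs of the mitochondrial genome, which encode respiratory chain subunits, made up 3.74% of the control counts and 4.85% of those in TZ 5, with 3.71%, 3.97% and 4.38% for UPM, TZ 1.25 and TZ 2.5, a ratio of TZ 5 to control of 1.30 (1.29 to 1.30). Of 7 measured 2 were called higher, ND4 and CYTB, and 0 lower. ND4, a complex I subunit, was at 7139 CPM in the control and 13560 in TZ 5, with 7318, 7621 and 11140 in UPM, TZ 1.25 and TZ 2.5 (1.90, 1.88 to 1.92; edgeR adjusted p = 1.858e-09). CYTB, the complex III cytochrome, was at 6103 CPM in the control and 9980 in TZ 5, with 5772, 6151 and 7632 in UPM, TZ 1.25 and TZ 2.5 (1.64, 1.62 to 1.66; edgeR adjusted p = 2.117e-06). For both, the control, UPM and TZ 1.25 libraries were close and TZ 5 was highest. The members did not move as a block: ND2 had a fold of 0.885 (0.878 to 0.893) and COX1 1.02 (0.988 to 1.04), while mitochondrial ribosomal RNA made up 7.94% of the control counts and 7.06% of those in TZ 5. Malat1, a nuclear long non-coding RNA, was at 5640 CPM in the control and 9950 in TZ 5, with 5418, 6403 and 8800 in UPM, TZ 1.25 and TZ 2.5 (1.76, 1.74 to 1.79; edgeR adjusted p = 1.903e-08).

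Nuclear genes of oxidative phosphorylation had 8 of 73 measured members called higher and 0 lower, with a median log2 fold of 0.05. In the fit 13 of 76 rose and 3 fell, Ndufa12, Uqcrc1 and Cyc1. Over all genes 3.55% were called higher by fold, and in the fit 2.18% rose and 2.80% fell. Atp5j, a subunit of ATP synthase, was at 74.7 CPM in the control and 137 in TZ 5, with 76.3, 74.6 and 117 in UPM, TZ 1.25 and TZ 2.5 (1.84, 1.65 to 2.04; edgeR adjusted p = 1.274e-05). The complex II subunit Sdhd and the complex IV subunits Cox5b and Cox7b had folds of 1.65 (1.49 to 1.84), 1.65 (1.48 to 1.84) and 1.59 (1.498 to 1.677), and all 3 rose in the fit. The lowest member was Cyc1, cytochrome c1, at a fold of 0.709. Genes of the mitochondrial ribosome had 0 of 76 called and a median of −0.03.

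Cytosolic ribosomal proteins had 10 of 80 measured members called higher and 0 lower. Folds were above 1 in 69 of them, and the median log2 fold was 0.19, against 0.04 in UPM, −0.02 in TZ 1.25 and 0.14 in TZ 2.5 over the same control. In the fit 20 of 82 rose and 2 fell, Rps14 and Rps27l. Over all genes 3.55% were called higher by fold, and in the fit 2.18% rose and 2.80% fell. Rpl23 was at 276 CPM in the control and 524 in TZ 5, with 285, 298 and 451 in UPM, TZ 1.25 and TZ 2.5 (1.90, 1.798 to 2.004; edgeR adjusted p = 2.18e-08). Rps23 and Rpl21 had folds of 1.74 (1.62 to 1.87) and 1.72 (1.60 to 1.85). The highest fold was that of Rpl36al, 2.18 (1.95 to 2.45), a near copy of Rpl36a, which stood at 541 CPM in the control and 773 in TZ 5. Ribosomal protein genes have many processed copies in the genome, so their counts are less certain than those of single-copy genes.

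Translation factors did not share this direction. Over all measured genes 3.55% were called higher and 2.51% lower, shares at which lists this short hold few calls. In the fit 2.18% of all genes tested rose and 2.80% fell. Of 36 measured members 1 was called lower, Pabpc1, and 0 higher, with a median log2 fold of −0.09, and in the fit 1 of 36 rose and 5 fell. Pabpc1, which binds the poly(A) tail of messages, was at 6922 CPM in the control and 3969 in TZ 5, with 6122, 5998 and 4533 in UPM, TZ 1.25 and TZ 2.5 (0.573, 0.565 to 0.582; edgeR adjusted p = 2.18e-08). The nucleolar and snoRNP assembly genes had 1 of 34 called higher, Nsa2, and 0 lower, with 9 folds above 1 and a median of −0.13. Nsa2, a factor of large-subunit assembly, had a fold of 1.86 (1.66 to 2.08), while Dkc1, the enzyme of H/ACA particles, fell in the fit at a fold of 0.699. Aminoacyl-tRNA synthetases had 1 of 18 called lower, Farsa, and 0 higher. Farsa, a subunit of the phenylalanine enzyme, was at 422 CPM in the control and 262 in TZ 5 (0.620, 0.585 to 0.657; edgeR adjusted p = 1.629e-05). Prmt1, an arginine methyltransferase of RNA-binding proteins and histones, was at 561 and 325 CPM (0.579, 0.550 to 0.610; edgeR adjusted p = 1.57e-06).

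**Figure D4:**
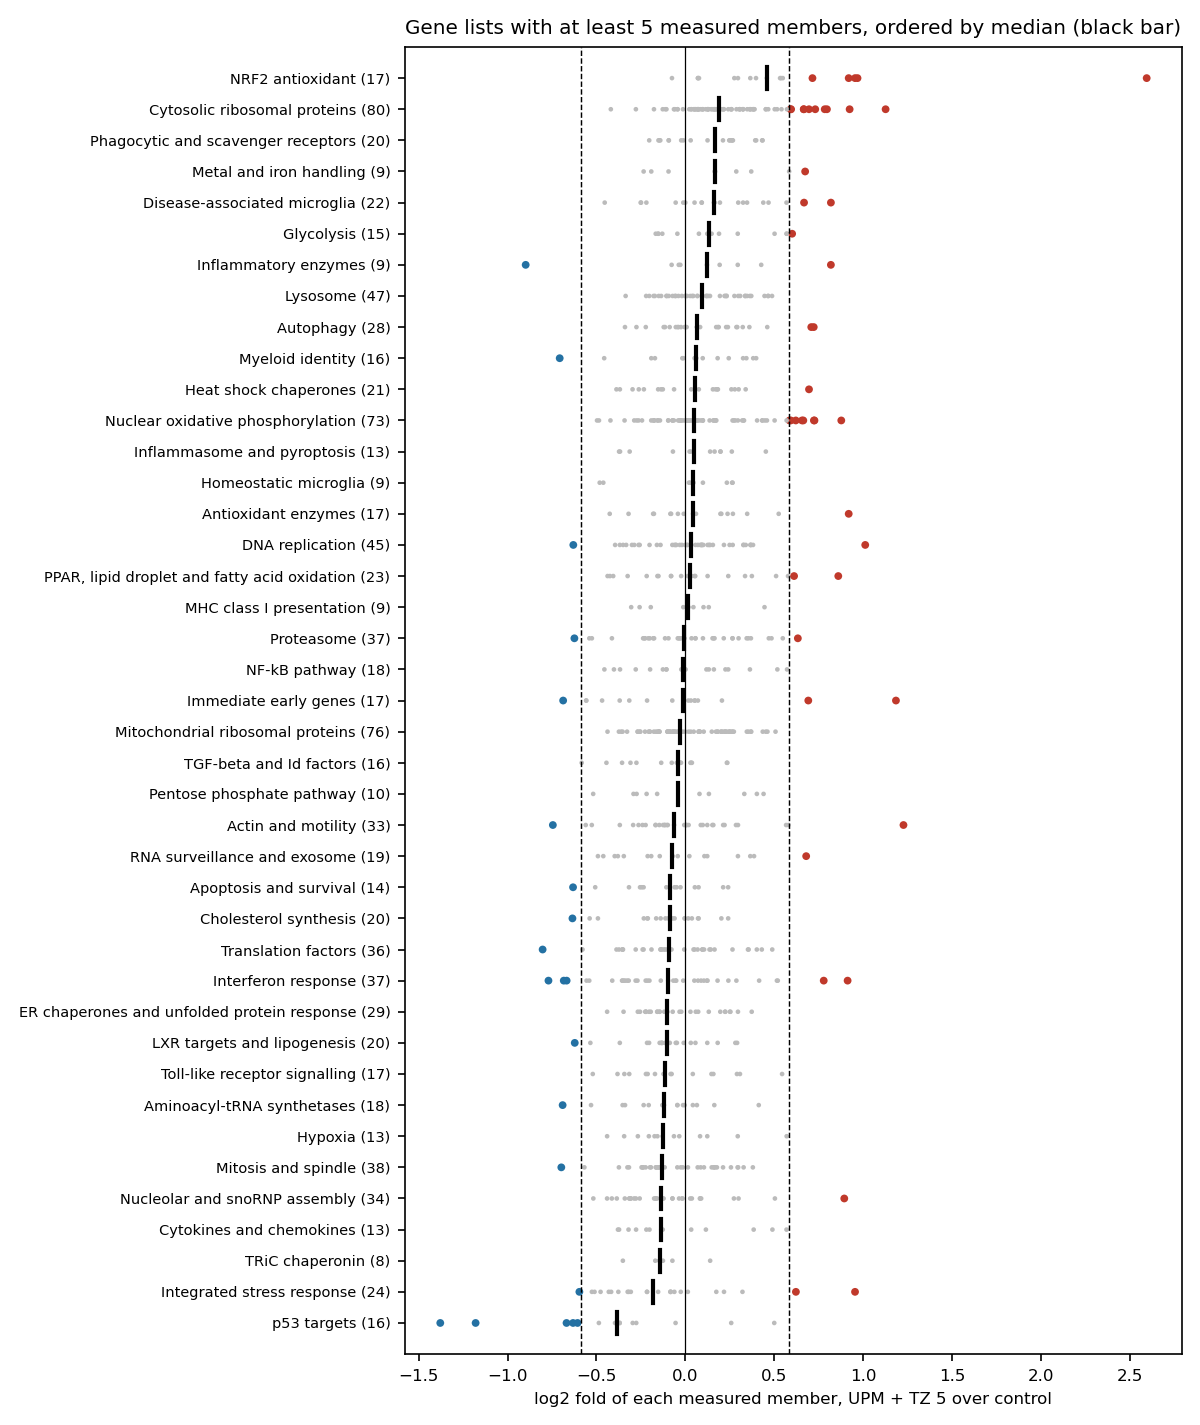
Each row is a gene list with its number of measured members in parentheses, each point the log2 fold of a member in TZ 5 over control (x), and each black bar the list's median; red and blue points are members called higher and lower, and dashed lines mark 1.5-fold. NRF2 antioxidant genes lie at the top with a median of 0.46 and p53 targets at the bottom with −0.38, and the medians of the other 39 lists lie between −0.18 and 0.19.

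Genes of macrophage and microglial identity are set beside the 6.06% of all measured genes called in either direction. At that share, lists this short hold few calls. Of 16 measured myeloid identity genes 1 was called lower, Spi1, and 0 higher, with a median log2 fold of 0.06. Spi1, which encodes the myeloid master regulator PU.1, was at 1017 CPM in the control and 623 in TZ 5, with 666, 782 and 803 in UPM, TZ 1.25 and TZ 2.5 (0.613, 0.590 to 0.636). The control was the highest library and TZ 5 the lowest, and Spi1 fell in the fit (edgeR adjusted p = 0.0004282), a call that the DESeq2 test did not make (adjusted p = 0.1969). Aif1, which encodes the microglial marker IBA1, rose in the fit and stood at 245 CPM in the control and 319 in TZ 5. Homeostatic microglia genes had 0 of 9 called in either direction and a median of 0.05, and in the fit 1 of 13 fell and 0 rose. That was Selplg, the ligand of P-selectin, at a fold of 0.716 (0.634 to 0.808; edgeR adjusted p = 0.01947), a call lost in 3 of the 7 alternative fits at adjusted p from 0.05133 to 0.09375. In this bulk measurement fewer cells expressing a gene and less RNA of it per cell cannot be told apart.

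The disease-associated microglia list, genes that microglia switch on around plaques and debris, had 2 of 22 measured members called higher and 0 lower. Its median log2 fold was 0.16, and in the fit 6 of 25 rose and 0 fell. Cd9, a tetraspanin of the cell surface, was at 118 CPM in the control and 209 in TZ 5, with 106, 150 and 181 in UPM, TZ 1.25 and TZ 2.5 (1.76, 1.62 to 1.92; edgeR adjusted p = 2.061e-06). Clec7a, the beta-glucan receptor dectin-1, had a fold of 1.59 (1.30 to 1.94; edgeR adjusted p = 0.03734), a call lost without the TZ 2.5 library (adjusted p = 0.08128). Gpnmb, a lysosomal membrane glycoprotein, was at 2203 CPM in the control and 2987 in TZ 5 (1.36, 1.33 to 1.38), and Spp1, secreted osteopontin, at 98.9 and 147 (1.48, 1.35 to 1.63). Both rose in the fit without being called by fold (edgeR adjusted p = 0.001445 and 0.002226). Trem2, the lipid receptor that this state depends on, was at 238 and 254 CPM and did not pass the test (edgeR adjusted p = 0.8332).

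Counts for the lysosome, autophagy, phagocytic receptor and proteasome lists stand beside 3.55% called higher and 2.51% called lower over all measured genes. Of 47 measured lysosome genes 0 were called, 32 had folds above 1 and the median log2 fold was 0.09, and in the fit 5 of 49 rose and 0 fell. Autophagy genes had 2 of 28 called higher and 0 lower. Nbr1, a cargo receptor, was at 36.7 CPM in the control and 60.6 in TZ 5 (1.65, 1.41 to 1.93), and Map1lc3b, the LC3B of autophagosome membranes, at 46.1 and 75.3 (1.63, 1.42 to 1.88). Both rose in the fit (edgeR adjusted p = 0.005634 and 0.003862). Phagocytic and scavenger receptors had 0 of 20 called and a median of 0.17. Among 37 proteasome genes 1 was called higher, Psme2, and 1 lower, Psmd13, the latter at 365 CPM in the control and 237 in TZ 5 (0.649, 0.610 to 0.690; edgeR adjusted p = 0.0001111).

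Over all measured genes 6.06% were called in either direction, a share at which short lists hold few calls. This applies to the cytokine, NF-kB, inflammasome, Toll-like receptor and MHC class I lists alike. No call in either direction was made among the 13 measured cytokines and chemokines. The median log2 fold was −0.14 and became 0.07 when members down to a mean CPM of 1 were included, of which 2 of 20 were called higher and 1 lower. With total counts alone 1 of the 13 was called higher. Tnf, the gene for tumour necrosis factor, was at 74.9 CPM in the control and 81.2 in TZ 5, with 70.2, 75.1 and 81.1 in UPM, TZ 1.25 and TZ 2.5 (1.08, 0.963 to 1.22). Ccl2, which draws monocytes, was at 81.1 CPM in the control and 83.0 in TZ 5, with 104, 93.8 and 70.6 in UPM, TZ 1.25 and TZ 2.5 (1.02, 0.9115 to 1.149), with UPM the highest library. The counting intervals of both folds include 1 and exclude 1.5. Il1b was at 2.79 CPM in the control and 4.06 in TZ 5, and Il6 at 0.665 and 1.74, and their intervals (0.796 to 2.69 and 0.858 to 9.47) hold both 1 and 1.5. Spp1, in this list too, was the single cytokine to rise in the fit.

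Among 9 measured inflammatory enzymes 1 was called higher, Ptgs1, and 1 lower, Nos2. Ptgs1, the constitutive cyclooxygenase, was at 34.6 CPM in the control and 61.1 in TZ 5, with 51.6, 44.6 and 57.6 in UPM, TZ 1.25 and TZ 2.5 (1.76, 1.51 to 2.07; edgeR adjusted p = 0.002086). Nos2, the inducible nitric oxide synthase, was at 17.8 CPM in the control and 9.57 in TZ 5, with 11.8, 12.2 and 10.97 in UPM, TZ 1.25 and TZ 2.5 (0.537, 0.394 to 0.726), so the control was highest, and it did not pass the test (edgeR adjusted p = 0.06188). The inducible cyclooxygenase Ptgs2 was at 0.133 CPM in the control and 0.870 in TZ 5, with no count in UPM and TZ 2.5. NF-kB pathway genes had 0 of 18 called and a median of −0.01, with 0 of 22 passing the fit. Inflammasome genes had 0 of 13 called and a median of 0.05, and Nlrp3, the sensor, was at 8.25 and 11.3 CPM (1.37, 0.970 to 1.95).

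Toll-like receptor genes had 0 of 17 called, with a median log2 fold of −0.12, and in the fit 2 of 23 fell and 0 rose. Those were Cd14, the lipopolysaccharide co-receptor, at 553 CPM in the control and 386 in TZ 5 (0.697, 0.664 to 0.732; edgeR adjusted p = 0.001683), and Unc93b1, which carries endosomal receptors, at 167 and 128 (0.768, 0.704 to 0.837; edgeR adjusted p = 0.01245). Tlr4, which signals with Cd14, was at 88.9 and 98.5 CPM (1.11, 0.994 to 1.23). Immediate early genes had 2 of 17 called higher, Klf4 and Dusp6, and 1 lower, Dusp2, none of which passed the fit. Klf4 was at 6.12 CPM in the control and 13.9 in TZ 5 (2.27, 1.58 to 3.31; edgeR adjusted p = 0.06183). Its mean CPM lay just above 10, and its call by fold was kept in 1 of the 4 other scalings, thinning included.

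Interferon response genes had 2 of 37 measured members called higher and 3 lower, with 14 folds above 1 and a median log2 fold of −0.10. In the fit 1 of 41 rose, Ifi30, and 5 fell. Over all measured genes 3.55% were called higher and 2.51% lower, and in the fit 2.18% rose and 2.80% fell. Bst2, the tether of budding virus, was at 71.2 CPM in the control and 41.8 in TZ 5, with 40.6, 51.0 and 45.8 in UPM, TZ 1.25 and TZ 2.5 (0.587, 0.507 to 0.678; edgeR adjusted p = 0.005175), with an adjusted p of 0.05319 in DESeq2. Irf9, a subunit of the interferon-activated transcription factor, had a fold of 0.630 (0.531 to 0.746; edgeR adjusted p = 0.0301), a call lost with total counts alone (adjusted p = 0.06724). Isg15, a ubiquitin-like modifier, was at 78.7 CPM in the control and 54.1 in TZ 5, with 40.2, 49.1 and 49.7 in UPM, TZ 1.25 and TZ 2.5 (0.688, 0.603 to 0.784). The control was the highest library for Bst2, Irf9 and Isg15. Isg15 was not called by fold and fell in the fit (edgeR adjusted p = 0.04462), a call lost in 4 of the 7 alternative fits at adjusted p from 0.06376 to 0.166. Ifit1, which binds foreign RNA caps, went the other way, at 12.2 CPM in the control, 11.8 to 14.9 in the other exposed libraries and 23.1 in TZ 5 (1.88, 1.45 to 2.46), and did not pass the test (edgeR adjusted p = 0.08237). Stat2, a partner of Irf9 in that transcription factor, was the other member called higher, at 1.72 (1.30 to 2.27). It did not pass the test (edgeR adjusted p = 0.2838). Ifit3 was called lower at 0.623 (0.440 to 0.873) and also did not pass it. Genes of MHC class I presentation had 0 of 9 called and a median of 0.02.

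The integrated stress response slows translation and induces amino acid genes, and 24 of its genes were measured. Called higher were 2, Slc7a11 and Pck2, called lower 1, Ddit3, and the median log2 fold was −0.18, against −0.22 in UPM, −0.16 in TZ 1.25 and −0.04 in TZ 2.5. The shares called over all measured genes were 3.55% higher and 2.51% lower. Ddit3, which encodes the stress factor CHOP, was at 98.6 CPM in the control and 65.3 in TZ 5, with 53.6, 74.8 and 75.6 in UPM, TZ 1.25 and TZ 2.5 (0.662, 0.587 to 0.745; edgeR adjusted p = 0.07202). Atf4, the central factor of the response, was at 702 and 672 CPM in the pair. ER chaperones and unfolded protein response genes had 0 of 29 called, with a median of −0.10. Heat shock chaperones had 1 of 21 called higher, Hspa8, at 50.6 CPM in the control and 81.9 in TZ 5 (1.62, 1.42 to 1.85; edgeR adjusted p = 0.01355), a call that DESeq2 did not make (adjusted p = 0.09786). The TRiC chaperonin, which folds actin and tubulin, had 0 of 8 called, with 1 fold above 1 and a median of −0.14.

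Mitosis and spindle genes had 1 of 38 called lower, Bub1b, and 0 higher, with a median log2 fold of −0.13. Over all measured genes 3.55% were called higher and 2.51% lower, shares at which lists this short hold few calls. Bub1b, a kinase of the spindle checkpoint, was at 126 CPM in the control and 77.7 in TZ 5, with 114, 113 and 99.0 in UPM, TZ 1.25 and TZ 2.5 (0.617, 0.554 to 0.686; edgeR adjusted p = 0.000525). Mki67, a marker of dividing cells, was at 452 and 507 CPM in the pair (1.12, 1.07 to 1.18). Actin and motility genes had 1 of 33 called higher, Tmsb10, and 1 lower, Actg1, and Actb, beta-actin, lay just inside the limit at 14140 CPM in the control and 9590 in TZ 5 (0.678, 0.672 to 0.685) and fell in the fit (edgeR adjusted p = 2.047e-05). Actg1 was at 16.8 CPM in the control and 3.33 in TZ 1.25, a low and uneven level for a cytoplasmic actin, and it has near-identical copies in the genome.

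Lipid genes were mostly near their control level. Their calls stand beside 3.55% called higher and 2.51% called lower over all measured genes. Cholesterol synthesis genes had 1 of 20 called lower, Mvd, and 0 higher, with a median log2 fold of −0.08. Hmgcs1, which makes the HMG-CoA used for sterols, was at 158 and 166 CPM (1.05, 0.968 to 1.14), and Dhcr7, the last enzyme of the pathway, at 37.8 and 36.0 (0.951, 0.799 to 1.13). LXR targets and lipogenesis genes had 1 of 20 called lower, Srebf1, and 0 higher, and in the fit 3 of 22 fell, Scd2, Srebf1 and Fasn, and 0 rose. Srebf1, the regulator of fatty acid synthesis, was at 52.4 CPM in the control and 34.1 in TZ 5 (0.650, 0.551 to 0.766; edgeR adjusted p = 0.01905), a call that DESeq2 did not make (adjusted p = 0.1094) and that was lost without the TZ 2.5 library (adjusted p = 0.06811). The PPAR, lipid droplet and fatty acid oxidation genes had 2 of 23 called higher, Cpt1a and Pex5, and 0 lower, with a median of 0.03. In the list of serotonin and adrenergic receptors, to which trazodone is known to bind, 3 of 19 genes were measured and 0 called.

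Of the 41 lists with at least 5 measured members, 14 had no call in either direction. Glycolysis (15 measured), antioxidant enzymes (17) and RNA surveillance (19) each had 1 called higher and 0 lower, namely Eno1, Cat and Exosc3. Apoptosis and survival genes (14) had 1 called lower, Bax. Hypoxia (13), pentose phosphate (10) and TGF-beta and Id genes (16) had 0 called, at medians of −0.13, −0.04 and −0.04. Among endothelial markers Vwf, von Willebrand factor, was called higher, at 15.4 CPM in the control and 26.5 in TZ 5, with 29.4 in UPM (1.72, 1.36 to 2.19). The summed endothelial markers were at 299 CPM in the control and 339 in TZ 5, most of it Flt1. Of the 8 markers 6 had counts in both libraries of the pair, and Cldn5 and Tek had none. Kdr was at 14.9 CPM in the control and 12.6 in TZ 5, Tie1 at 7.85 and 8.41, and Pecam1 at 1.864 and 1.305.

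Several genes named for a high fold or a small adjusted p belong to none of these groups. Fbxl14, an F-box protein of a ubiquitin ligase, was at 8.92 CPM in the control, 29.4 in TZ 5, 11.9 in UPM and TZ 1.25, and 24.2 in TZ 2.5 (3.30, 2.49 to 4.42; edgeR adjusted p = 6.624e-06). Man1c1, a mannosidase that trims glycans in the Golgi, was at 40.7 CPM in the control and 90.9 in TZ 5, with 57.5, 47.3 and 74.5 in UPM, TZ 1.25 and TZ 2.5 (2.23, 1.94 to 2.57; edgeR adjusted p = 3.847e-06). Csf2ra, the receptor chain for GM-CSF, was at 72.5 CPM in the control and 147 in TZ 5, with 88.9, 76.1 and 137 in UPM, TZ 1.25 and TZ 2.5 (2.02, 1.82 to 2.25; edgeR adjusted p = 2.061e-06), though DESeq2 gave an adjusted p of 0.1264. In these genes TZ 2.5 and TZ 5 were the highest libraries. Tuba1a, an alpha-tubulin, had a fold of 2.14 (1.75 to 2.63), as did Tmem37, which was highest in UPM at 28.1 CPM. Others of the 15 highest, Adap2, Acyp1, Klf10, Ift80, Cmtr2, Tstd3 and Ccdc18 had folds from 2.10 to 2.45, and of these Ift80 did not pass the test (edgeR adjusted p = 0.07811) while Cmtr2 lost its call without the TZ 2.5 library (adjusted p = 0.1042). Control levels were 6.52 CPM for Adap2, 9.05 for Acyp1, 7.45 for Ift80, 7.19 for Cmtr2 and 9.98 for Tstd3. These genes, like Fbxl14 and Tmsb10 (6.26 CPM in the control), met the level limit of 10 only through TZ 5.

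Low genes outside the groups were led by Pou3f1, a POU-domain transcription factor, at 18.1 CPM in the control and 7.40 in TZ 5 (0.409, 0.290 to 0.568; edgeR adjusted p = 0.00491). Gfod2 and Tprn had folds of 0.451 (0.352 to 0.574) and 0.454 (0.320 to 0.636), and both fell in the fit. Akt1s1, a subunit that restrains mTORC1, was at 14.2 and 6.67 CPM (0.468, 0.324 to 0.668; edgeR adjusted p = 0.04515), a call lost in 3 of the 6 alternative fits with an adjusted p, at 0.05423 to 0.1051. Ccz1, part of a complex that matures endosomes, was at 195 CPM in the control and 107 in TZ 5, with 160, 142 and 118 in UPM, TZ 1.25 and TZ 2.5 (0.548, 0.501 to 0.600; edgeR adjusted p = 2.384e-07). Snhg9, a snoRNA host transcript, was at 251 CPM in the control and 144 in TZ 5 (0.574, 0.531 to 0.620; edgeR adjusted p = 1.924e-06). The pseudogene Npm3-ps1 was called lower at 0.5002 (0.358 to 0.692) and did not pass the test (edgeR adjusted p = 0.1174), and its parent Npm3 was at 28.7 and 28.0 CPM.

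Folds moved with the base composition of the transcripts. In the 1611 genes with the lowest GC content the median log2 fold was 0.07, with 77 genes called higher and 29 lower, and in the 1611 with the highest it was −0.10, with 29 higher and 86 lower. By transcript length the medians ran from −0.01 to 0.03 with no order, while the calls became fewer from the shortest bin, with 83 higher and 72 lower, to the longest, with 38 and 16. The 1668 genes of lowest and of highest level had medians of 0.05 and −0.03. Calls were most frequent at low level. The lowest bin, at a mean CPM of 10.01 to 19.1, held 155 called higher and 89 lower. The highest bin held 21 and 31. The median GC content was 49.6% over measured genes, 49.7% for the NRF2 antioxidant list, 49.5% for p53 targets, 51.7% for cytosolic ribosomal proteins and 51.1% for nuclear oxidative phosphorylation. The NRF2 and p53 lists were thus close to the median composition, and the part of GC content in single folds was not tested.

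**Figure D5:**
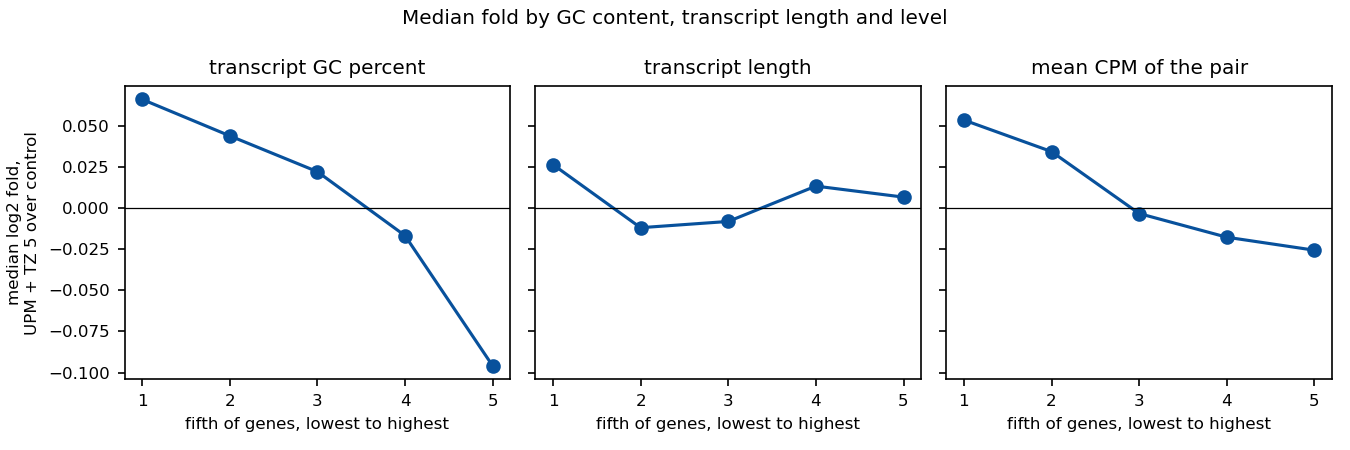
Each point is the median log2 fold of TZ 5 over control (y) in 5 bins of near-equal size of the measured genes, ordered from lowest to highest (x) by transcript GC content, transcript length or mean CPM. The GC medians go from 0.07 to −0.10, and those of length lie between −0.01 and 0.03.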

How the data were processed

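Libraries were 3′-end libraries (QuantSeq, oligo-dT primed, single-end reads of 75 bp) from total RNA, per the labels' protocols. The authors deposited a file of raw counts for each library, by gene symbol. STAR, edgeR and build GRCm39 are named in the submitters' processing notes, with no versions, and the sources used here do not give the counting program, annotation or strand setting. CPM were counts per 1e6 scaled by TMM factors over all 5 libraries (0.991 to 1.01, edgeR 4.0.16). The fit used edgeR's quasi-likelihood test (limma 3.58.1, R 4.3.3) after filterByExpr, with 2 residual and a median of 63.5 prior degrees of freedom, so its p-values rest mostly on spread shared across genes. SE was the size of the estimate over the root of F. The script was tested on simulated counts. Intervals used scipy 1.17.1.

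The members and the 50 gene lists were chosen with earlier results of these data known. Of 1253 list names 1249 were present, 28 by an alias. Named genes were the 15 highest and 15 lowest called, leaving out predicted names, the 20 with the smallest adjusted p, up to 4 called per list and direction (else the highest and lowest member), and 18 panel genes; all others named were chosen after their values were seen. Transcript classes were set by gene symbol (small nucleolar RNA: names in Snord or Snora followed by a digit). GC content and length came from GENCODE M21 transcripts (GRCm38), with 96.6% of measured genes matched. Alternatives were other scalings, level limits, a fold of 2, thinning, DESeq2 1.42.0, dose as rank, no filter, and each UPM library left out except TZ 5, which the contrast needs.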

Additional observations from a re-analysis of the deposited data

How the results depend on the processing

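No paired analysis was possible because each group has 1 library, so no number is shared by replicates. The count of genes called higher by fold, 296, was 692 at a mean CPM limit of 1, 88 at 30, 785 with no limit and 28 at a fold of 2, and the 209 called lower were 463, 87, 553 and 23. Under the pair's own TMM factors, DESeq2 size factors, total counts and thinning to the smaller total, 273 to 335 were higher and 185 to 231 lower; total counts moved the median log2 fold of all genes from 0.01 to 0.03. The fit's 270 higher and 347 lower genes were 96 and 166 with DESeq2, which gave 4460 genes an adjusted p, and 252 and 209 with total counts. Leaving out UPM, TZ 1.25 or TZ 2.5 gave 173 to 346 higher and 226 to 421 lower, the lowest without TZ 2.5. The cause was not tested. Over the scalings and thinning, 504 recomputed folds of named genes stayed within their counting interval and 4 left it without changing direction, those of ND4, Malat1, Pabpc1 and CYTB under total counts. The call by fold of Klf4 was kept in 1 of these 4 settings, and those of Eno1, Ddit3, Bax and Mvd in 3 of 4. Refits of named genes lost the call in 29 cases and gained it in 30, and 788 kept their side. The medians of the immediate early, NF-kB, proteasome, pentose phosphate and cytokine lists changed sign under some settings, so their direction is not set. Depth limits the low genes: 3 counts are 0.396 CPM in the control, and the levels of Il6, Ptgs2 and Nqo1 were near or under that limit in the control.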
